A study of Mus musculus with 6 samples.

Results

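The genes described are 8 of the 32815 gene rows measured in C2C12, an immortalised mouse myoblast line, and they serve ubiquitin supply and the p97 pathway of protein disposal. They are the polyubiquitin gene Ubb, the AN1-type zinc finger genes Zfand2a, Zfand2b and Zfand5, the p97 gene Vcp and its cofactor gene Nploc4, the proteasome-bound deubiquitinase gene Usp14, and the transcription factor gene Nfe2l1. They were chosen by symbol with their values in stretched and control cells already known, so their difference between the groups is given as a description, with no test. The study compared 3 control libraries with 3 libraries of cells put under cyclic mechanical stretch (MS) for 8 h at 1 Hz in a four-point bending device with a plate displacement of 4 mm. The stretch is labelled 5333 μ, a unit that the labels do not spell out. All 6 libraries came from wild-type cells, carry the same batch label and differ in their labels only by the treatment. C2C12 is a single established line, and the labels do not say whether the 3 libraries of each treatment were grown as separate cultures. Every p below therefore rests on library-to-library spread that may be technical only.

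Ubiquitin is a small protein that is attached in chains to proteins bound for destruction. p97, an ATPase, pulls ubiquitin-tagged proteins out of membranes and complexes with the help of cofactors and hands them to the proteasome, and AN1-type zinc finger proteins bind ubiquitin, p97 or the proteasome. Nfe2l1 is made as a membrane protein of the endoplasmic reticulum that p97 extracts, and once cut free it raises transcription of the proteasome genes when proteasome activity is short. In human patients, inherited changes in p97 cause a myopathy, and in mouse skeletal muscle Zfand5 is known from muscle wasting.

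Values are in FPKM, which divides fragments by the length of the transcript and by the total of the library. Levels may thus be compared between genes within a library. Between libraries a level is relative to that total, so a change in other transcripts moves it too. Summed FPKM lay between 298991 and 329968 per library, and the libraries' relative totals lay between 0.961 and 1.01 of that of control 1. Those totals were sought only among ratios close to equality, so a larger difference could not have shown. The mitochondrial genome's transcripts made up 13.2% to 14.3% of each control library's FPKM, against 2.73% to 3.81% for MS, and ribosomal RNA rows 0.646% to 0.797% against 2.27% to 4.94%. Of 11 myoblast markers, 9 reached 1 FPKM in each control library and 7 to 8 in each MS library, and together they came to 129 to 146 FPKM for control against 92.4 to 114 for MS. The myoblast factor Myod1 was low, at 1.42 to 2.00 FPKM for control against 0.823 to 1.20 for MS, and Pax7 stood at 0 in 5 libraries and at 0.0094 FPKM in MS 3.

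The libraries also held transcripts of other tissues and of differentiated muscle, in sets that cross the treatment. The 10 salivary gland and tongue markers in the table came to 217 FPKM for control 3 and 252 for MS 1, against 6.76 to 10.6 in the other libraries. The 12 differentiated muscle markers summed to 89.9 in control 3 and 118 in MS 1, against 5.62 to 10.3 elsewhere, and the 17 lens markers to 305 and 374 in those libraries, against 1239 to 1635 elsewhere. The 12 kidney markers summed to 1.05 and 1.39 in control 1 and control 2 and to 99.3 to 109 in control 3 and every MS library. Kap supplied most of those higher sums, at 86.9 to 96.0 FPKM. For the 6 fibroblast markers the sums were 62.3 to 75.7 (control) against 43.2 to 48.7 (MS), and for the 6 macrophage markers 3.75 to 5.32 against 25.5 to 30.8. Nearly all of the macrophage sum was Cd68, a lysosomal protein of many cells, while Ptprc stayed under 0.06 FPKM and Adgre1 at 0. The 5 endothelial markers summed to 0.928 to 1.69. By these markers the libraries form 3 sets, control 1 with control 2, control 3 with MS 1, and MS 2 with MS 3, and MS 1 against control 3 is the only contrast of treatment inside a set. The difference of each of the 8 genes is therefore also given for that pair and for the libraries left without it. The part of these markers in the results was not tested. In such bulk RNA, fewer cells of a type and less RNA per cell cannot be told apart.

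Transcripts of 6 of the 8 genes stood at higher FPKM in every MS library than in every control library, and those of Zfand2b and Zfand5 overlapped between the groups. The separation was widest for Zfand2a, at 3.69 times its control mean, and next for Nfe2l1, at 1.81 times. Ubb, Vcp, Nploc4 and Usp14 stood 1.20 to 1.35 times their control means. Over the whole table, 35.9% of the 12028 genes that averaged 1 FPKM or more had every MS library above every control library and 26.8% had every one below. Because the members were chosen on these values, nothing is read from their count. For the other pathway genes, which were tested with limma at an adjusted p of 0.05, the background is that 30.6% of all tested genes passed toward higher and 23.2% toward lower values in MS. The median log2 fold change of the 8 members was 0.31, beside 0.05 for all tested genes, which is likewise a description only. Fold changes below are differences of log2(FPKM + 1), which understate the change of low genes.

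**Figure D1:**
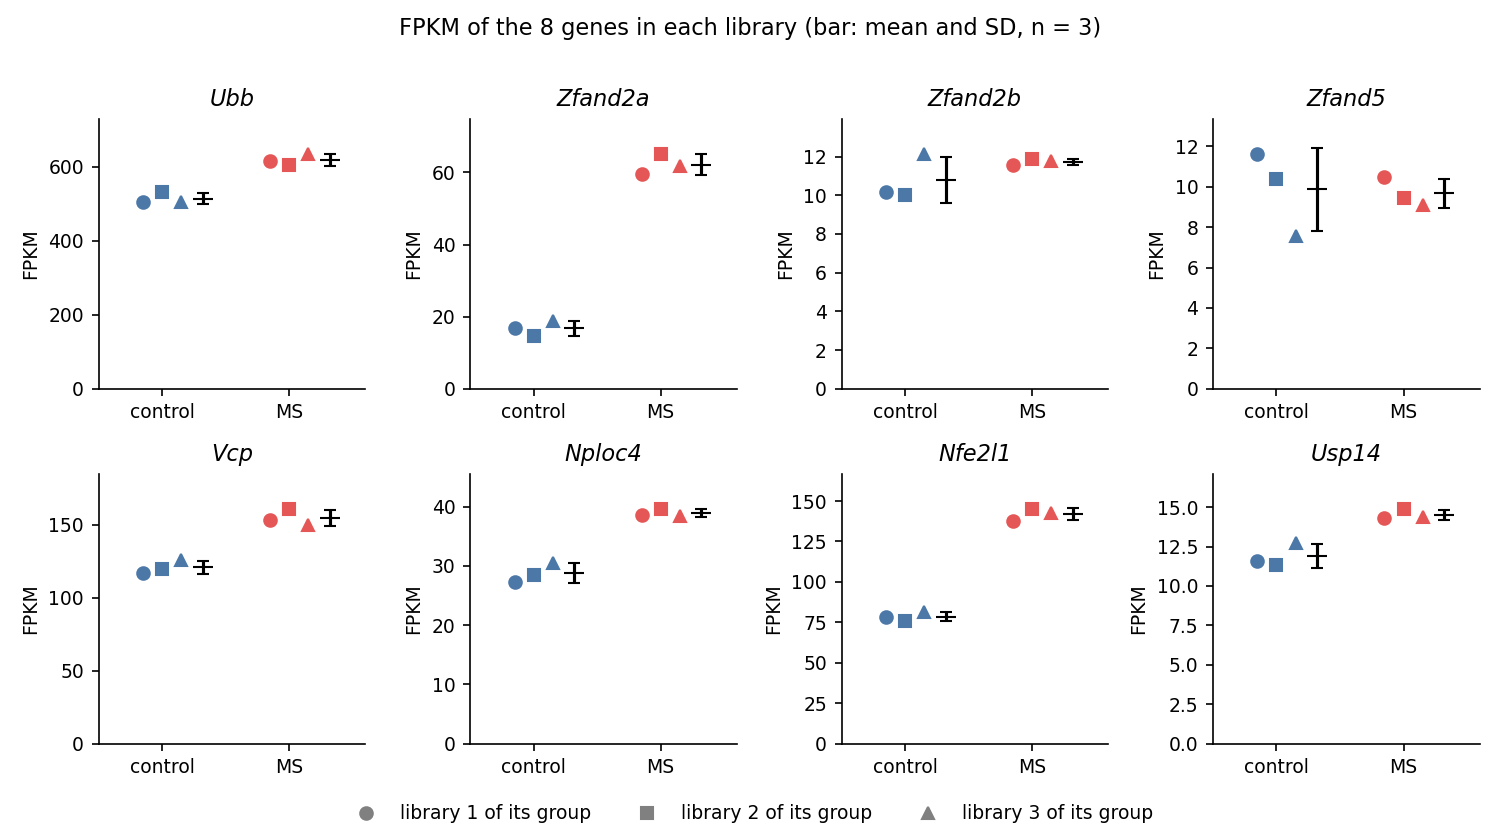
FPKM of each of the 8 genes (vertical axis, from 0) in 3 control and 3 MS libraries, with 1 symbol per library and bars for the mean and SD of 3 libraries. All MS symbols lie above all control symbols for Ubb, Zfand2a, Vcp, Nploc4, Nfe2l1 and Usp14, and the groups overlap for Zfand2b and Zfand5.

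Promoter sequences are shown for the 3 members whose promoter holds a pair of units of the heat shock element, the sequence bound by heat shock factors. The RefSeq promoter table (GRCm38.p6), which covers 250 bases before and 50 bases from a transcript start on, held 13 promoters of 7 of the 8 members. A pair was read as GAANNTTC or TTCNNGAA, each the same on both strands, with N for any base and GAA or TTC as the unit. Neighbouring pairs may share letters. The pairs are in capitals, and all 3 genes lie on the minus strand, at chr5:139484442-139484741 for Zfand2a, chr11:120437651-120437950 for Nploc4 and chr4:43000458-43000757 for Vcp.
Zfand2a: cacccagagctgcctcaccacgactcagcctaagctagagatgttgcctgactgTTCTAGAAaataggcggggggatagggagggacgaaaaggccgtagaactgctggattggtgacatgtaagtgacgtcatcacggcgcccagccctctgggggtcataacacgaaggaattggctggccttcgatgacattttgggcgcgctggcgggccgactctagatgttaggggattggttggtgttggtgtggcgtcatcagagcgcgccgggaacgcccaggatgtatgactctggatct
Nploc4: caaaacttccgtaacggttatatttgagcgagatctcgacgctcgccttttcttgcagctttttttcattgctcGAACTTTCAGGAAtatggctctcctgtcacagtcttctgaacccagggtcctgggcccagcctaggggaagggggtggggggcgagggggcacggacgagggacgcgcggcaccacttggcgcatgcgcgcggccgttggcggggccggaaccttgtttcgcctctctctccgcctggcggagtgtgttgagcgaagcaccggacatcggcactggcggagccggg
Vcp: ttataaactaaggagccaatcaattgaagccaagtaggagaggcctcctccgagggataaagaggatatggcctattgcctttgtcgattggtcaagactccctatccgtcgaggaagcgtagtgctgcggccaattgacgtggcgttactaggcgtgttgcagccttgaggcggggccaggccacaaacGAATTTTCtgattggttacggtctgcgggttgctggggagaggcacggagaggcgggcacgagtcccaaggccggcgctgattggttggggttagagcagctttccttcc
The Zfand2a promoter holds TTCTAGAA from -196 to -189 of the start site, and the Vcp promoter holds GAATTTTC from -60 to -53. In the Nploc4 promoter GAACTTTC at -176 to -169 overlaps TTCAGGAA at -171 to -164, so that the units GAA, TTC and GAA alternate there. Among 32851 promoters of this length, 7.86% held GAANNTTC, 8.52% held TTCNNGAA and 0.603% held 3 such alternating units of GAA and TTC. The antioxidant response element that Nfe2l1 and its relatives bind, read as TGACNNNGC on both strands, was in 12.4% of all promoters. Among the members it was in the Vcp promoter at -114 to -106, in 1 of the 2 Ubb promoters at -29 to -21, and in the Zfand5 promoter at -195 to -187 and -95 to -87. These matches are a description of letters and not of binding.

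Ubb, at chr11:62441997-62444039 (mm39), encodes ubiquitin as a chain of repeats that is cut into single molecules after translation. It measured 504.5, 530.8 and 505.7 FPKM in the control libraries and 616.5, 603.9 and 635.1 FPKM in the MS libraries. The lowest MS library stood above the highest control library, and the spread within each group was small beside the gap. The mean was 514 ± 14.8 FPKM (SD, n = 3) in control and 618 ± 15.7 in MS, a log2 fold change of 0.27 (SE 0.05). MS 1 exceeded control 3 by 0.29 on the log2 scale, and without those libraries the difference was 0.26. Of 1436 distinct stretches of 150 bases in Ubb transcripts, 521 also occur in the copies Gm1821 and Gm8797. The sources used here do not give how counting shared reads between copies. Summed with both copies, the level was 627 ± 17.5 FPKM in control and 756 ± 16.5 in MS, 1.21 times as high.

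Rps27a encodes ubiquitin fused to a ribosomal protein and passed the test toward higher values in MS, with 115 ± 12.2 FPKM in control and 172 ± 11.1 in MS (log2 fold change 0.58, SE 0.09, limma adjusted p = 0.00131). The call was lost with a term for the 3 library sets, which leaves MS 1 against control 3 to decide each difference (limma adjusted p = 0.062, range over 19 alternatives 0.000572 to 0.062). Rps27a shares sequence with the processed copy Rps27a-ps2, which stood at 48.0, 127.1 and 110.2 FPKM in control and 54.1, 38.8 and 65.7 in MS. Summed with its copies Rps27a-ps2 and Gm8430, Rps27a stood at 229 ± 40.6 FPKM in control and 235 ± 5.55 in MS, 1.03 times as high, so its single-gene difference is uncertain.

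Zfand2a, at chr5:139456966-139470304 (mm39), encodes the arsenite-inducible zinc finger protein AIRAP, a stress-induced protein that binds the proteasome and p97. It measured 17.0, 14.7 and 18.8 FPKM in control and 59.5, 65.1 and 61.8 in MS. The lowest MS library held over 3 times the highest control library. The means were 16.8 ± 2.09 and 62.1 ± 2.83 FPKM (SD, n = 3), a log2 fold change of 1.83 (SE 0.09). Of the 12028 tested genes, 35 (0.291%) had a higher fold change. MS 1 exceeded control 3 by 1.61, and the difference was 1.94 without those libraries.

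Zfand2b, at chr1:75145290-75148269 (mm39), encodes AIRAPL, the membrane-anchored relative of AIRAP. It measured 10.2, 10.02 and 12.1 FPKM in control and 11.6, 11.9 and 11.7 in MS, so that control 3 was the highest library and the groups overlapped. The log2 fold change was 0.12 (SE 0.07), with means of 10.8 ± 1.18 and 11.7 ± 0.14 FPKM. It was -0.06 for MS 1 against control 3 and 0.21 without those libraries.

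Zfand5, at chr19:21249642-21264204 (mm39), encodes ZNF216, which binds ubiquitin chains and the proteasome. It measured 11.6, 10.4 and 7.58 FPKM in control and 10.5, 9.42 and 9.08 in MS, with both the highest and the lowest library in the control group. The log2 fold change was -0.01 (SE 0.14, 95% interval -0.34 to 0.31), with means of 9.87 ± 2.07 and 9.67 ± 0.733 FPKM. MS 1 exceeded control 3 by 0.42, and without those libraries the difference was -0.23, so its direction depended on the libraries used. Control 3 held the lowest Zfand5 and the highest Zfand2b value of all libraries.

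Of the 4 other Zfand genes, 1 rose, 1 fell and 2 did not pass the test. Zfand3 rose from 20.1 ± 1.54 to 25.7 ± 1.24 FPKM (log2 fold change 0.34, limma adjusted p = 0.00459). Zfand4 fell, with 2.97 ± 0.173 FPKM in control against 1.97 ± 0.17 in MS (log2 fold change -0.42, limma adjusted p = 0.00303), a call lost with a term for the 3 library sets (adjusted p = 0.148, range over 18 alternatives 0.00116 to 0.148). Zfand1 had a log2 fold change of -0.09 (adjusted p = 0.405) and Zfand6 one of -0.00 (adjusted p = 0.951), both in limma's test.

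Vcp, at chr4:42979963-43000507 (mm39), encodes p97 itself. It measured 117.0, 119.5 and 125.9 FPKM in control and 153.2, 161.0 and 150.1 in MS, with no overlap. The means were 121 ± 4.57 and 155 ± 5.61 FPKM (SD, n = 3), a log2 fold change of 0.36 (SE 0.05). MS 1 exceeded control 3 by 0.28, and the difference was 0.39 without those libraries. Of 4836 stretches of 150 bases in Vcp transcripts, 1386 also occur in the related sequence Vcp-rs, and the sum of both stood at 165 ± 6.45 FPKM in control and 208.5 ± 4.27 in MS.

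Nploc4, at chr11:120271196-120328534 (mm39), encodes NPL4, which with UFD1 forms the adaptor that brings ubiquitin-tagged proteins to p97. It measured 27.4, 28.4 and 30.5 FPKM in control and 38.6, 39.6 and 38.5 in MS. The MS libraries lay close together and all above control. The means were 28.8 ± 1.63 and 38.9 ± 0.624 FPKM, a log2 fold change of 0.42 (SE 0.05), with 0.33 for MS 1 against control 3 and 0.47 without them. Its partner Ufd1, named after its values were seen, rose from 11.5 ± 0.289 to 14.8 ± 0.656 FPKM (log2 fold change 0.34, limma adjusted p = 0.00145).

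Of 29 other genes of p97 and its cofactors, 26 were tested, 16 (61.5%) rose, 1 (3.85%) fell and 9 did not pass. Of all tested genes 30.6% rose and 23.2% fell, and the median log2 fold change of the 26 was 0.26. Rhbdd1, a rhomboid protease of the endoplasmic reticulum that works with p97, rose from 7.54 ± 0.673 to 16.7 ± 1.54 FPKM (log2 fold change 1.05, SE 0.08, limma adjusted p = 8.51e-05). Vcpip1, a p97-linked deubiquitinase, rose by 0.62, Ubxn1, a UBX-domain adaptor, by 0.59, and Nsfl1c, the cofactor p47, by 0.56 on the log2 scale (limma adjusted p from 7.25e-05 to 9.73e-05). Selenos, a selenoprotein of the endoplasmic reticulum that recruits p97 and was named after its values were seen, had 23.4 ± 1.47 and 19.9 ± 1.25 FPKM (log2 fold change -0.23, limma adjusted p = 0.0228, range over 19 alternatives 0.00602 to 0.537). Its call was lost in 6 of 19 alternatives, among them without MS 2, without MS 3 and without control 2. With the term for library sets its log2 fold change was -0.09. Fewer of the 26 passed with that term, as did fewer of all tested genes. For MS 1 against control 3 alone the median of the 26 was 0.27, beside 0.08 for all tested genes.

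**Figure D2:**
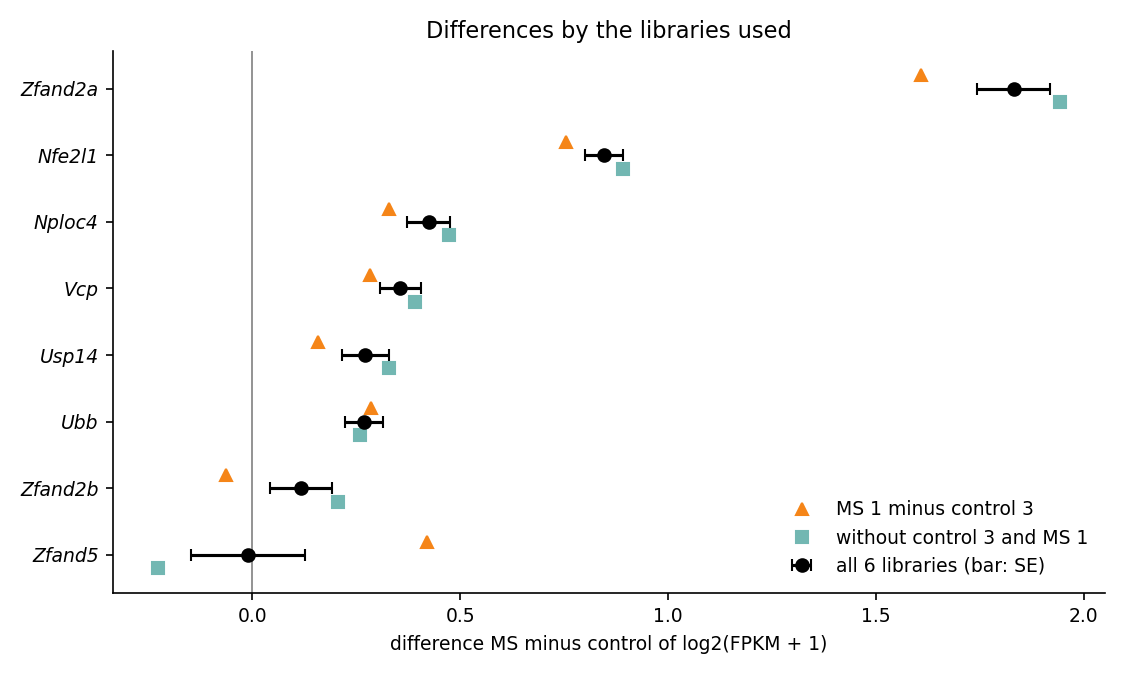
Difference of log2(FPKM + 1), MS minus control (horizontal axis), for each of the 8 genes over all 6 libraries (circles, with the SE), for MS 1 minus control 3 (triangles) and without these libraries (squares). Zfand2a, Nfe2l1, Nploc4, Vcp, Usp14 and Ubb stay above 0 in every version, while Zfand2b and Zfand5 take both signs.

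Usp14, at chr18:9993066-10045105 (mm39), encodes the deubiquitinase that trims ubiquitin chains at the proteasome. It measured 11.6, 11.3 and 12.7 FPKM in control and 14.3, 14.9 and 14.4 in MS, again with no overlap. The means were 11.9 ± 0.752 and 14.5 ± 0.317 FPKM, a log2 fold change of 0.27 (SE 0.06). MS 1 exceeded control 3 by 0.16, less than over all libraries, and the difference was 0.33 without them. The gene overlaps Thoc1 on the opposite strand over 2424 bases, and Thoc1 stood at 3.93 FPKM in control and 4.31 in MS.

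Of the 12 other genes that handle ubiquitin at the proteasome, 9 (75%) rose, 2 (16.7%) fell and 1 did not pass. Of all tested genes 30.6% rose and 23.2% fell, and the median log2 fold change of the 12 was 0.23. The ubiquitin receptor Psmd4 rose from 51.0 ± 2.26 to 78.6 ± 1.68 FPKM (log2 fold change 0.61, limma adjusted p = 7.87e-05), and the second receptor Adrm1 by 0.46 (adjusted p = 0.000245). The protease Ddi2 rose by 0.38 (limma adjusted p = 0.00165) and the deubiquitinase Psmd14 by 0.36 (adjusted p = 0.00278). With the term for library sets fewer of the 12 passed, as did fewer of all tested genes. The calls of Ddi2 and Psmd14 were lost with that term, the only 1 of 19 alternatives to do so. Their log2 fold changes were then 0.31 and 0.28. For MS 1 against control 3 alone the median of the 12 was 0.16, beside 0.08 for all tested genes. The genes that fell, named after their values were seen, were the shuttle Ubqln2 at -0.28 (limma adjusted p = 0.00554) and the deubiquitinase Uchl5 at -0.28 (adjusted p = 0.0319). The Uchl5 call was lost in 7 of 19 alternatives (adjusted p 0.00695 to 0.157), among them without MS 1, MS 3, control 2 or control 3, and that of Ubqln2 only with the set term (0.00113 to 0.247).

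Nfe2l1, at chr11:96708240-96720328 (mm39), encodes the factor NRF1, the activator of the proteasome genes. It measured 78.2, 75.97 and 81.3 FPKM in control and 137.9, 145.2 and 142.7 in MS. The gap between the groups was far wider than the span of either. The means were 78.5 ± 2.68 and 142 ± 3.70 FPKM (SD, n = 3), a log2 fold change of 0.85 (SE 0.05), and 334 tested genes (2.78%) had a higher fold change. MS 1 exceeded control 3 by 0.75, and the difference was 0.89 without those libraries.

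Of 15 other genes around Nfe2l1, 13 were tested, 8 (61.5%) rose, 1 (7.69%) fell and 4 did not pass. Their median log2 fold change was 0.25. Among all tested genes 30.6% rose and 23.2% fell, with a median of 0.05. Fewer of the 13 rose with the set term. For MS 1 against control 3 alone the median of the 13 was 0.30, beside 0.08 for all tested genes. The small Maf proteins, which pair with Nfe2l1 on DNA, rose together: Mafk from 8.35 ± 0.979 to 14.9 ± 0.673 FPKM (log2 fold change 0.77, limma adjusted p = 0.000313), Maff by 0.72 (0.000317) and Mafg by 0.70 (0.000284). Ogt, which adds O-GlcNAc to proteins, rose from 13.0 ± 2.73 to 21.7 ± 1.61 FPKM (log2 fold change 0.72, limma adjusted p = 0.00356). Further genes were named after their values were seen. The relative Nfe2l2, the antioxidant factor NRF2, rose by 0.25 on the log2 scale (limma adjusted p = 0.00223), and Hcfc1, a transcriptional cofactor, fell, with 27.2 ± 1.23 FPKM against 20.6 ± 0.624 (-0.38 on the log2 scale, adjusted p = 0.000796). Ngly1, the enzyme that removes sugars from Nfe2l1, had a log2 fold change of -0.05 (limma adjusted p = 0.523). The proteasome subunits, known targets of Nfe2l1, rose in 32 of 32 cases (100%), beside 30.6% of all tested genes. They rose by 0.22 to 0.93, with a median of 0.48. Fewer of the 32 passed with the set term, and for MS 1 against control 3 alone their median was 0.39. The lid subunit Psmd11 rose from 14.4 ± 1.2 to 28.4 ± 0.169 FPKM (log2 fold change 0.93, limma adjusted p = 4.07e-05), the ATPases Psmc2 and Psmc6 by 0.72 and 0.64, and the core subunit Psmb3 by 0.64 (adjusted p from 9.33e-05 to 0.000316).

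Of 18 genes of ubiquitin activation, transfer and recycling, 7 (38.9%) rose, 1 (5.56%) fell and 10 did not pass. Of all tested genes 30.6% rose and 23.2% fell. The median log2 fold change of the 18 was 0.14. Fewer of the 18 passed with the set term, and for MS 1 against control 3 alone their median was 0.07, beside 0.08 for all tested genes. Ube2g2, a conjugating enzyme of endoplasmic reticulum disposal, rose from 21.6 ± 0.46 to 29.7 ± 0.744 FPKM (log2 fold change 0.44, limma adjusted p = 0.000217), and Otub1, a deubiquitinase, by 0.40 (adjusted p = 0.000336). The conjugating enzymes Ube2j2 and Ube2d3 rose by 0.27 and 0.26 (limma adjusted p = 0.0125 and 0.00354), and both calls were lost with the set term (0.113 and 0.151, with ranges from 0.0108 and from 0.00113). Ube2d1, named after its values were seen, stood at -0.20 (limma adjusted p = 0.0279), and its call was lost in 9 of 19 alternatives (0.0131 to 0.2), among them without any of MS 1, MS 2, MS 3, control 1 or control 3. Of 7 genes of ribosome-associated quality control, which sends stalled nascent chains to p97, 4 (57.1%) rose, none fell and 3 did not pass. Fewer of the 7 rose with the set term, and for MS 1 against control 3 alone their median was 0.33. Zfp598, the ligase that marks collided ribosomes, rose from 21.5 ± 0.447 to 35.5 ± 0.986 FPKM (log2 fold change 0.70, limma adjusted p = 3.47e-05). The ribosome rescue factor Hbs1l rose by 0.38 and Nemf, which recruits the ligase listerin, by 0.29 (limma adjusted p = 0.000454 and 0.00288).

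The lists, like the members, were chosen with earlier results of these data known, so the shares below are a description and not independent evidence. Over all lists, 109 of 114 pathway genes other than the members were tested. Of these, 75 (68.8%) rose and 6 (5.5%) fell, with a median log2 fold change of 0.29, beside 30.6% and 23.2% of all tested genes and a median of 0.05. Without the proteasome subunits, 43 of 77 (55.8%) rose and 6 fell, with a median of 0.21. With the term for 3 library sets fewer of the 109 passed, as did fewer of all tested genes. For MS 1 against control 3 alone the median of the 109 was 0.25, beside 0.08 for all tested genes. Without control 3 and MS 1, 77 of the pathway genes rose and 5 fell, beside 3338 and 2890 of all tested genes. Some genes stand on 2 lists (Ngly1, Ddi2, Psmd14, Psmd4, Adrm1 and Ankzf1) and are counted once here.

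**Figure D3:**
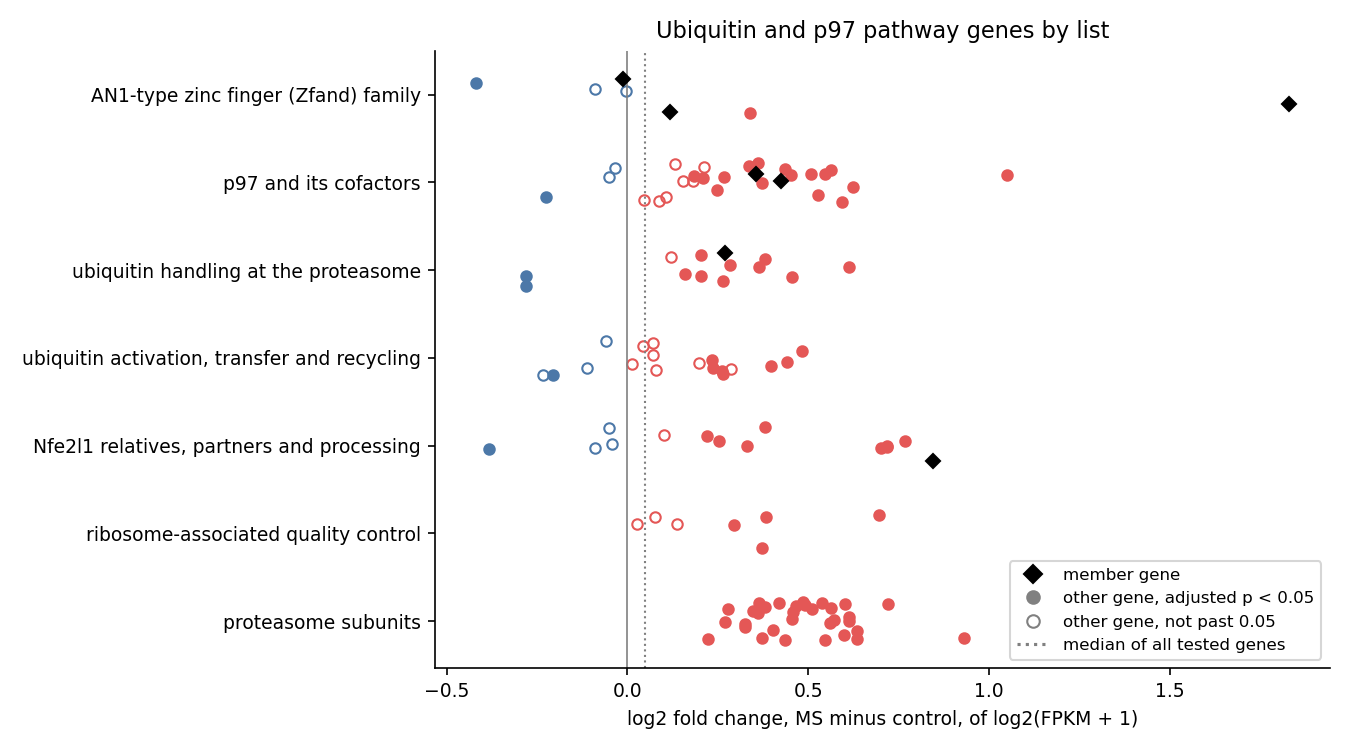
Log2 fold change, MS minus control (horizontal axis), of tested genes by list, without the ubiquitin-encoding genes, with diamonds for members, filled circles for other genes at an adjusted p under 0.05, open circles for the others and a dotted line at the median of all tested genes (0.05). All 32 proteasome subunits lie to the right of the dotted line as filled circles, and Zfand2a lies farthest right.

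By level, the control order was Ubb, Vcp, Nfe2l1, Nploc4, Zfand2a, Usp14, Zfand2b and Zfand5, from 514 to 9.87 mean FPKM. Among tested genes the control mean of Ubb stood at percentile 99.6 and that of Zfand5 at percentile 58.7. The ranges over libraries did not overlap from Ubb down to Usp14, while Usp14, Zfand2b and Zfand5 each overlapped the next. In MS the order changed at 1 place, where Zfand2a, at 59.5 to 65.1 FPKM, stood above Nploc4, at 38.5 to 39.6. Zfand5 had the widest relative spread in control, a coefficient of variation of 21.0%, followed by Zfand2a with 12.4% and Zfand2b with 10.9%, while the other members had 2.89% to 6.33%. In MS the coefficients ran from 1.19% for Zfand2b to 7.59% for Zfand5.

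Profiles were compared over the 6 libraries by the root mean square difference of log2(FPKM + 1), taken from the control mean, among 7197 genes. The profiles nearest to that of Zfand2a were those of Cyb5r1 (0.084), Hsph1 (0.099), Slc6a9 (0.1), Cox6a2 (0.1) and Aldh1l2 (0.11). Hsph1, which encodes a cytosolic heat shock protein, stood at 12.6 FPKM in control and 47.1 in MS. The profiles nearest to that of Ubb were those of Rex1bd (0.017), Adprhl2 (0.022), Naglu (0.023), Clta (0.024) and Pik3r2 (0.025). Clta, a clathrin light chain, stood at 96.99 FPKM in control and 116 in MS.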

How the data were processed

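The authors deposited FPKM per gene and library for poly(A)-selected, strand-marked libraries read as 150 bp pairs, per the labels' protocols. Per the submitters' processing notes, the build was mm39 and the tools, in no stated order or role, included StringTie 2.1.6, HISAT2 2.2.1 and cutadapt 1.9, besides edgeR and DESeq2. Whether counting used strand, and how it treated reads that map to several places, the sources used here do not give. FPKM are not counts: depth is unknown and count tests were left out. Relative totals came from the ratios at which low values piled up. Symbols came from a GENCODE M21 name table for 31077 of 32815 rows.

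The 12028 genes that averaged 1 FPKM or more were fitted on log2(FPKM + 1) with limma 3.58.1 in R 4.3.3 (lmFit, eBayes with trend), as a two-sided test, p-values were adjusted over all of them (Benjamini-Hochberg), with calls at an adjusted p under 0.05. The fit was also run on simulated data with independent noise and no library sets, which cannot show how it performs with such sets. "Rose" and "fell" are used of genes past that threshold.

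The members and lists were chosen with earlier results of these data known. Named genes were all ubiquitin and Zfand genes and, per other list, up to 4 non-members with the largest fold change among those called that averaged 5 FPKM or more and had groups that did not overlap. Some genes that the rule names are not reported here. The 5 profiles nearest to Zfand2a and Ubb were taken among genes of that level. The term for 3 library sets was chosen after seeing the data. The labels do not say whether the replicate numbers pair the libraries, so the main fit used no pairing. Shared sequence came from M21 transcripts and promoters from RefSeq (GRCm38.p6), with no coordinates moved between builds.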

Additional observations from a re-analysis of the deposited data

How the results depend on the processing

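The 8 genes were recomputed under 19 alternatives each (other pseudocounts, filters, scalings, weights, terms and left-out libraries). Zfand2a, Nfe2l1, Nploc4, Vcp, Usp14 and Ubb kept their direction in all 19, with log2 fold changes of 1.61 to 1.94, 0.70 to 0.89, 0.33 to 0.47, 0.24 to 0.39, 0.16 to 0.33 and 0.21 to 0.34. Zfand2b ran from -0.06 to 0.21 and took the other sign once, and Zfand5 from -0.23 to 0.42, with the other sign in 5. The count of other pathway genes that rose (75) fell to 42, and that of genes that fell (6) to 1, with a term for the 3 library sets, as all tested genes went from 3683 higher and 2787 lower to 1845 and 1321. That term leaves MS 1 against control 3 alone to estimate each difference. Pathway genes that fell numbered 3 with no filter on low values, and 3 to 5 when 1 library was left out, the lowest without MS 3. Scaling to the median moved the split of all calls to 3079 higher and 3194 lower and the median of all tested genes from 0.05 to 0.00. With the replicate number as a block (replicate block), 73 pathway genes rose and 5 fell, and 3323 and 2567 of all tested genes. Deviations of libraries with the same number correlated at -0.33, 0.25 and -0.37, and those of control 3 and MS 1 at 0.46. Because the library sets cross the numbers, these values cannot show whether the numbers pair libraries, and the labels do not say. Depth is unknown, and 3 libraries a group limit the precision of each mean.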
